A study of Mus musculus with 10 samples.

Results

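The 10 genes Bcl2, Bcl2l1, Bcl2l11, Mcl1, Bax, Bak1, Bad, Bid, Bbc3 and Bnip3, members of the BCL2 family and its BNIP3 branch, were examined in muscle satellite cells (MuSCs) with and without the ion channel gene Trpm7. They were found by symbol in the deposited count table, where all 10 were present among 24608 symbols. RNA was sequenced from 3000 YFP-positive cells a library, sorted from muscle 3 days after injury with cardiotoxin (CTX), in 5 libraries of control and 5 of Trpm7 cKO mice. Control mice were Trpm7 +/+; Pax7 CreERT2/+; Rosa26-YFP and cKO mice were Trpm7 flox/flox; Pax7 CreERT2/+; Rosa26-YFP, all C57BL6 adults of 7 to 20 weeks, males and females. Both genotypes carried the Cre and the YFP reporter and received 5 tamoxifen (TMX) injections and CTX. The Cre is driven by Pax7 and acts only after TMX, so YFP marks cells in which the reporter was recombined and does not itself show that both Trpm7 alleles were lost. The libraries are labelled as separate samples, while 1 number appears in the labels of both cKO replicate 4 and cKO replicate 5 and is not explained there.

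BCL2 proteins decide whether the outer mitochondrial membrane stays closed. BCL2, BCL-XL (from Bcl2l1) and MCL1 hold the effectors BAX and BAK (from Bak1) in check, and BIM (from Bcl2l11), BAD, BID and PUMA (from Bbc3), which share only the BH3 domain, either occupy the protective members or act on the effectors. Open membranes release cytochrome c, which assembles the apoptosome and starts the caspases. BNIP3 sits on the same membrane and is best known as a mitophagy receptor induced under low oxygen. In muscle, MuSCs leave quiescence after injury, divide and commit to fusion, and the balance between these proteins sets how readily they die on the way.

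Of the 10 genes, 9 were tested, and 3 had an adjusted p below 0.05 by the test given below. Bcl2 and Mcl1 rose and Bax fell, where 24.6% of all tested genes rose and 24.1% fell. Mcl1 and Bax lost the call in some alternative fits. Bcl2, Mcl1 and Bax are shown first with the 250 bases upstream of their RefSeq start (GRCm38.p6), 5′ to 3′ on the strand of the gene. Bcl2 (ENSMUSG00000057329) lies on the minus strand at chr1:106538178-106714274, Mcl1 (ENSMUSG00000038612) on the plus strand at chr3:95658788-95663176 and Bax (ENSMUSG00000003873) on the minus strand at chr7:45461697-45466898 in GRCm38. The RefSeq starts of Bcl2 and Mcl1 lie upstream of these GENCODE gene boundaries. The windows are chr1:106714291-106714540, chr3:95658471-95658720 and chr7:45466899-45467148. Capitals mark the GC box GGGCGG and the E-box CACGTG on either strand.
Bcl2: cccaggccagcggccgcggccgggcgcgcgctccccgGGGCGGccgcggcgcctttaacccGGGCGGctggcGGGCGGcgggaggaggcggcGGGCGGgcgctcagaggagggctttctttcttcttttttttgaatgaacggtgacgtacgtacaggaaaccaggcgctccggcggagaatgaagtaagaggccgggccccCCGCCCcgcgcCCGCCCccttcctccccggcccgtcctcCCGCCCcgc
Mcl1: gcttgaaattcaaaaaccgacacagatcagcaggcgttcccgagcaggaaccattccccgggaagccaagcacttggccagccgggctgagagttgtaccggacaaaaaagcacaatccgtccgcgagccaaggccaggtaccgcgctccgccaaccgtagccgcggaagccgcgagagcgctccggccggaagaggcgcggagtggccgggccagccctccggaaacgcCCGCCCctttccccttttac
Bax: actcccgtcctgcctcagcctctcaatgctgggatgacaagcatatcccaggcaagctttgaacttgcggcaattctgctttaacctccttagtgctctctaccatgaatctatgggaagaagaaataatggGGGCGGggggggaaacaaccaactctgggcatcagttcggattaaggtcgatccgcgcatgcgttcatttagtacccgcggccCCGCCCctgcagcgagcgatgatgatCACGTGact
The Bcl2 window was 74.8% GC and held 7 GC boxes, between 9 and 213 bases before the start. The Mcl1 window was 64.4% GC and held 1 GC box, 20 bases before the start. The Bax window was 54.0% GC and held 2 GC boxes, at 35 and 118 bases, and 1 CACGTG at 9 bases before the start. RefSeq gave 16 promoters for the 10 genes, all of which matched. GC content and motifs were taken over the 250 bases before each start, and bases after the start were not searched. A GC box stood in 11 of these 16, covering 8 genes, and in 32.7% of all 32851 promoters, whose median GC was 52.4%. CACGTG stood in 1 promoter each of Bax, Bbc3 and Bnip3 and in 6.02% of all promoters. CCAAT was found in a promoter of Bad, Bbc3, Bcl2l11 and Bnip3 and in 33.8% of all promoters. All motifs were searched on either strand. The TATA box TATAAA was in none of the 16 and in 12.4% of all promoters. The AP-1 motif TGANTCA was in none and in 6.75%, the CRE motif TGACGTCA in none and in 1.55%, and the STAT motif TTCNNNGAA in none and in 7.02%. None of these motifs contains another, and a match is a match of letters, not a bound site.

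Control libraries held 914361 to 1097709 counts and cKO libraries 205986 to 581121, from the same number of sorted cells. Each count is 1 molecule tagged by a unique molecular identifier (UMI) at the 3′ end of a transcript. The 10 genes together gave 507 to 622 counts in a control library and 205 to 503 in a cKO library, which limits the precision of the low members. Levels are given as CPM (each count relative to the library's total) after scaling with TMM factors, called normalized CPM, a scale on which the libraries are compared for 1 gene at a time. Trpm7 itself read 66.6, 68.2, 90.1, 83.3 and 76.4 normalized CPM in control replicates 1 to 5 and 70.2, 101, 84, 46.4 and 55.2 in cKO replicates 1 to 5. The groups overlapped (log2 fold change -0.09, SE 0.20, adjusted p = 0.723), but the count was taken at the 3′ end, and nothing in the sources used here places that end within the deleted part, so the level does not check the deletion. Pax7, which defines MuSCs, averaged 206 ± 33.7 in control and 474 ± 122 in cKO (SD, n = 5 each), while Myod1 and Myog, which mark commitment, averaged 744 ± 111 and 507 ± 33.4 in control and 181 ± 36.6 and 128 ± 37.8 in cKO. Pax7 was counted in every library, at 167 to 224 counts in control and 101 to 296 in cKO. Pax7 does not stand for all identity genes. Of 17 tested MuSC identity genes 10 rose and 3 fell. Those that fell were Met, Itga7 and Itgb1, with log2 fold changes of -1.49, -0.59 and -0.54.

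Cells of the 2 genotypes were compared to ask which of these genes differ when Trpm7 is missing in regenerating MuSCs. Among the anti-apoptotic genes, Bcl2 and Mcl1 were higher in Trpm7 cKO MuSCs, by 3.96-fold and 1.59-fold, and the effector Bax was lower, by 1.66-fold. Of the 10 genes, 9 had enough counts to be tested with 7753 genes in all, by the quasi-likelihood F test of edgeR with Benjamini-Hochberg adjustment. Of these 9, 2 rose at an adjusted p below 0.05, where 24.6% of all tested genes rose, and 1 fell, where 24.1% of all tested genes fell. With a log2 fold change beyond 1.5 as well, 1 of the 9 was higher (Bcl2) and 0 were lower, where 8.49% of all genes were higher and 3.53% lower. The number lower stayed at 0 at an unadjusted p below 0.05 and with DESeq2 and limma-voom. At an unadjusted p below 0.05, Bak1 was the 1 further gene of the 9. These shares are near those of all genes, so the counts alone do not set the family apart, and what follows concerns the individual genes. The median log2 fold change of the 9 was 0.38, beside -0.01 for all tested genes. In sorted bulk RNA, fewer cells of a type and less RNA per cell cannot be told apart.

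Bcl2, the founding anti-apoptotic member, had the largest log2 fold change of the 9. Its level was 14.9, 18.6, 19.3, 30.1 and 27.8 normalized CPM in control replicates 1 to 5, from 15 to 30 counts each, and 103, 118, 76.7, 43.1 and 105 in cKO replicates 1 to 5, from 19 to 64 counts each. Every cKO library lay above every control library, the closest being cKO replicate 4. The log2 fold change was 1.99 (SE 0.27, 95% interval 1.43 to 2.54, adjusted p = 5.38e-06). Leaving out any 1 library kept it between 1.82 and 2.19, while with a MuSC identity score in the model it was 1.00 (adjusted p = 0.0404). It was below the adjusted p threshold in all 25 alternative fits that tested it, with adjusted p up to 0.0473, and was filtered out when counts were thinned to the smallest library.

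Mcl1 encodes a short-lived protective protein that is replaced continuously by new synthesis. Its level was 347, 338, 317, 347 and 331 normalized CPM in control replicates 1 to 5 and 514, 420, 515, 537 and 717 in cKO replicates 1 to 5, from 286 to 349 and 130 to 324 counts. The control libraries were close together, at a mean of 336 ± 12.5, and all 5 cKO libraries were above them, at 541 ± 109 (SD, n = 5 each). The log2 fold change was 0.67 (SE 0.14, 95% interval 0.38 to 0.97, adjusted p = 0.000584), and 0.56 to 0.73 with any 1 library left out. The call was lost with a leukocyte score in the model (-0.02, adjusted p = 0.994), with scaling on MuSC identity genes (0.29, adjusted p = 0.21) and with counts per 3000 sorted cells (-0.54, adjusted p = 0.178).

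Bcl2l1, whose long product BCL-XL protects cells and whose short splice form does not, did not pass the test. It read 31.8, 26.8, 25.7, 21.1 and 32.4 normalized CPM in control replicates 1 to 5 and 18.5, 49.7, 29.2, 41.4 and 71.7 in cKO replicates 1 to 5. The cKO libraries spread from below to above all control libraries. The log2 fold change was 0.51 (SE 0.28, 95% interval -0.06 to 1.09, adjusted p = 0.13). It was 0.72 without cKO replicate 1, the lowest library, with an adjusted p of 0.0243. Counts at the 3′ end do not separate the splice forms.

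**Figure D1:**
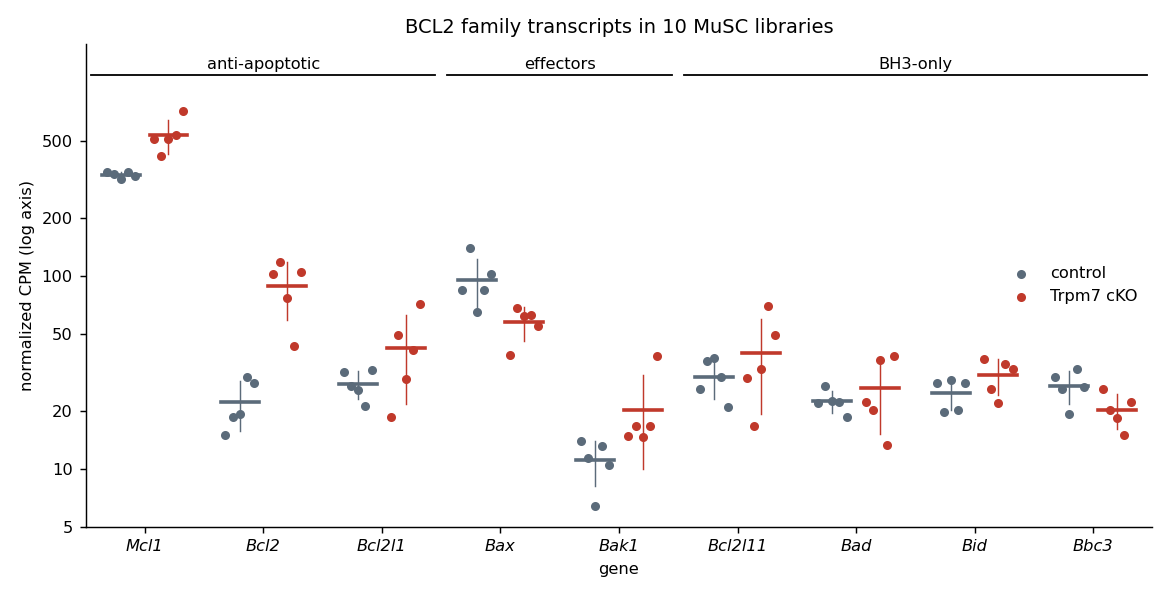
Normalized CPM (log axis) of the 9 tested BCL2 family genes in each of 5 control and 5 Trpm7 cKO libraries, grouped by role; points are libraries in replicate order, thick bars are means and thin lines are SDs. Bcl2 and Mcl1 lie higher in every cKO library than in any control library, and Bax lies lower in cKO with 1 overlapping pair of libraries.

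Of the effectors, 1 fell, where 24.1% of all tested genes did. Bax, which opens the outer membrane once activated, read 84.5, 139, 65.4, 84.3 and 103 normalized CPM in control replicates 1 to 5 and 38.8, 68.1, 62.1, 63 and 55.2 in cKO replicates 1 to 5. The groups overlapped by a single pair, cKO replicate 2 lying above control replicate 3. Bax had 61 to 135 counts a library in control and 10 to 38 in cKO, and the log2 fold change was -0.73 (SE 0.22, 95% interval -1.18 to -0.28, adjusted p = 0.00883). Without control replicate 2, the highest library, it was -0.54 with an adjusted p of 0.0331, the weakest of the fits that left out 1 library. With a leukocyte score in the model it was -1.03 (adjusted p = 0.344), with a MuSC identity score -0.59 (adjusted p = 0.233), and after thinning -0.68 (adjusted p = 0.069).

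Bak1, the other effector, was not called. It read 13.9, 11.4, 6.43, 13.1 and 10.4 normalized CPM in control replicates 1 to 5 and 14.8, 16.6, 14.6, 16.6 and 38.6 in cKO replicates 1 to 5. No cKO library was below a control library, on 6 to 14 counts in control and 4 to 10 in cKO. The log2 fold change was 0.69 (SE 0.33, 95% interval 0.01 to 1.38, adjusted p = 0.0886). It passed only with scaling on total counts (0.79, adjusted p = 0.0491), and it was filtered out in the 5 fits that left out a control library. With Bcl2 and Mcl1, Bak1 made 3 of 9 genes whose groups did not overlap, where 34.5% of all tested genes did not overlap. The highest cKO value rested on 7 counts in the smallest library.

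Of the 4 BH3-only genes, 0 passed the test, where 24.6% of all tested genes rose and 24.1% fell. Also 0 did so at an unadjusted p below 0.05, with DESeq2 or with limma-voom. These genes had only 4 to 42 counts in a cKO library, so smaller changes may be missed, and some were called under other scalings or models. Bcl2l11, whose product BIM binds every protective member, read 25.9, 36.1, 37.5, 30.1 and 20.8 normalized CPM in control replicates 1 to 5 and 29.6, 16.6, 32.9, 69.6 and 49.7 in cKO replicates 1 to 5. The lowest and the highest libraries were both cKO (log2 fold change 0.38, SE 0.30, adjusted p = 0.315). Without cKO replicate 4 its sign turned, to -0.09. It was 1.15 with a MuSC identity score in the model (adjusted p = 0.0301) and -1.99 with a leukocyte score (adjusted p = 0.137).

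Bbc3, whose product PUMA is a p53 target, read 29.8, 25.8, 19.3, 33.1 and 26.6 normalized CPM in control replicates 1 to 5 and 25.9, 20.2, 18.3, 14.9 and 22.1 in cKO replicates 1 to 5. The cKO values lay in the lower part of the control range or under it. The log2 fold change was -0.42 (SE 0.26, 95% interval -0.96 to 0.11, adjusted p = 0.183). It passed with scaling on MuSC identity genes (-0.83, adjusted p = 0.0136) and with counts per 3000 sorted cells (-1.57, adjusted p = 0.000431).

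Bid, which links death receptors to mitochondria once it is cut by caspase 8, read 27.8, 19.6, 29, 20.1 and 27.8 normalized CPM in control replicates 1 to 5 and 37, 25.8, 21.9, 34.8 and 33.1 in cKO replicates 1 to 5. The groups overlapped (log2 fold change 0.32, SE 0.24, 95% interval -0.17 to 0.81, adjusted p = 0.276). The last 500 transcript bases of Bid lie opposite an exon of Bcl2l13. Raw counts of Bcl2l13 summed to 117 in control and 40 in cKO, at means of 24.5 and 18.4 normalized CPM. The strand setting of the counting is not given, so reads of the pair may not be separated. Bad, which growth factor signalling silences by phosphorylation, read 21.9, 26.8, 22.5, 22.1 and 18.5 in control replicates 1 to 5 and 22.2, 20.2, 36.5, 13.3 and 38.6 in cKO replicates 1 to 5. Its cKO libraries lay above the control range in replicates 3 and 5, below it in replicate 4 and within it in replicates 1 and 2 (log2 fold change 0.04, SE 0.28, 95% interval -0.54 to 0.63, adjusted p = 0.994). The intervals of Bcl2l11, which ran from -0.25 to 1.02, and of Bid include the 0.67 measured for Mcl1, and that of Bad does not.

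Bnip3 was near absent from the counts and was not tested. Control replicates 1 to 5 held 0, 0, 1, 1 and 2 molecules and cKO replicates 1 to 5 held 1, 1, 0, 0 and 0, which sums to 4 of 5039727 control counts and 2 of 2140979 cKO counts. Every library was at or under the floor of 3 counts, so no fold is given and a difference was not detectable at this depth. Its 3′ end lies opposite an exon of Gm45507, which is not in the table. For all 10 genes, no run of 31 bases in the last 500 transcript bases was shared with another gene.

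**Figure D2:**
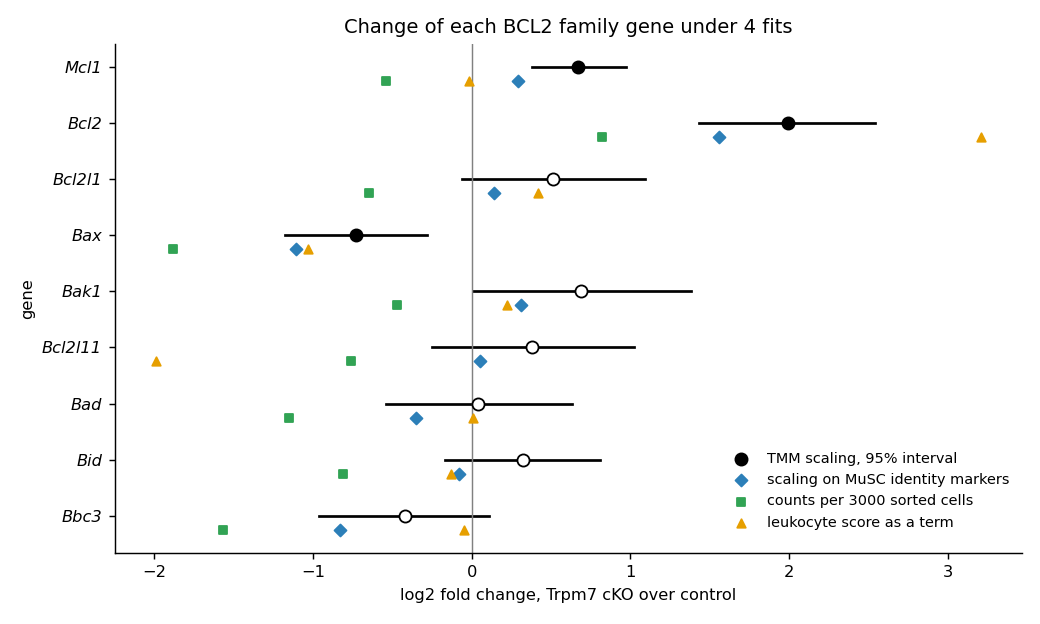
Log2 fold change of each tested BCL2 family gene, Trpm7 cKO over control, with TMM scaling (circles with 95% intervals, filled where the adjusted p was below 0.05) and under 3 other fits (coloured marks). Bcl2 stays above 0 in all 4 fits and Bax below 0, while Mcl1 lies at 0.67, 0.29, -0.02 and -0.54.

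Ratios of counts within a library do not depend on how libraries are scaled. They were compared between the groups without a test, and only the shift between groups is read, since counts of different genes may be captured unequally. The mix of cells in a library still acts on them. A ratio of a gene that rose to a gene that fell tends to separate the groups. The share of other gene pairs that separate was not counted, while 34.5% of single tested genes did not overlap. The Mcl1 to Bax ratio ran from 2.42 to 4.85 in control (median 4.11) and from 6.16 to 13.2 in cKO (median 8.53), a 2.59-fold higher geometric mean with no overlap. Bcl2 to Bax ran from 0.133 to 0.357 in control and from 0.684 to 2.67 in cKO, 6.44-fold higher with no overlap. Bcl2l1 to Bax ran from 0.193 to 0.393 and from 0.471 to 1.3, also without overlap, although Bcl2l1 itself did not pass the test. Bax to Bak1 ran from 6.07 to 12.3 in control and from 1.43 to 4.25 in cKO with no overlap. Mcl1 to Bbc3 ran from 10.5 to 16.4 and from 19.9 to 36, without overlap, whereas Mcl1 to Bcl2l11 overlapped, at 8.46 to 15.9 and 7.71 to 25.3. Bcl2l11 to Bbc3, at 0.783 to 1.94 and 0.818 to 4.67, and Bad to Bid, at 0.667 to 1.37 and 0.381 to 1.67, overlapped as well.

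By role, the summed anti-apoptotic counts were 2.54 to 5.04 times the effector counts in control and 6.93 to 11.9 times in cKO, with medians of 4 and 8.1. Against the BH3-only counts they were 3.35 to 4.17 times in control and 4.69 to 7.09 times in cKO. The groups did not overlap in either ratio. BH3-only to effector counts did overlap, at 0.719 to 1.51 and 0.978 to 2.14. Expressed as shares of the 10 genes' counts, the anti-apoptotic genes held 59.6 to 66.7% in control and 74.6 to 79% in cKO. The effectors held 13.2 to 23.5% and 6.65 to 11.2%. Mcl1 supplies most of the anti-apoptotic counts and Bax most of the effector counts, so these sums largely repeat that pair. In the protective group, Bcl2 to Mcl1 ran from 0.043 to 0.0867 in control and from 0.0802 to 0.281 in cKO, and Bcl2 to Bcl2l1 from 0.469 to 1.43 and from 1.04 to 5.6. Each of these pairs of ranges overlapped. All of these are ratios of transcripts, and neither protein levels nor cell death was measured in these libraries. In cultured MuSCs, the authors reported more TUNEL-positive (dying) cells with Trpm7 deleted.

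**Figure D3:**
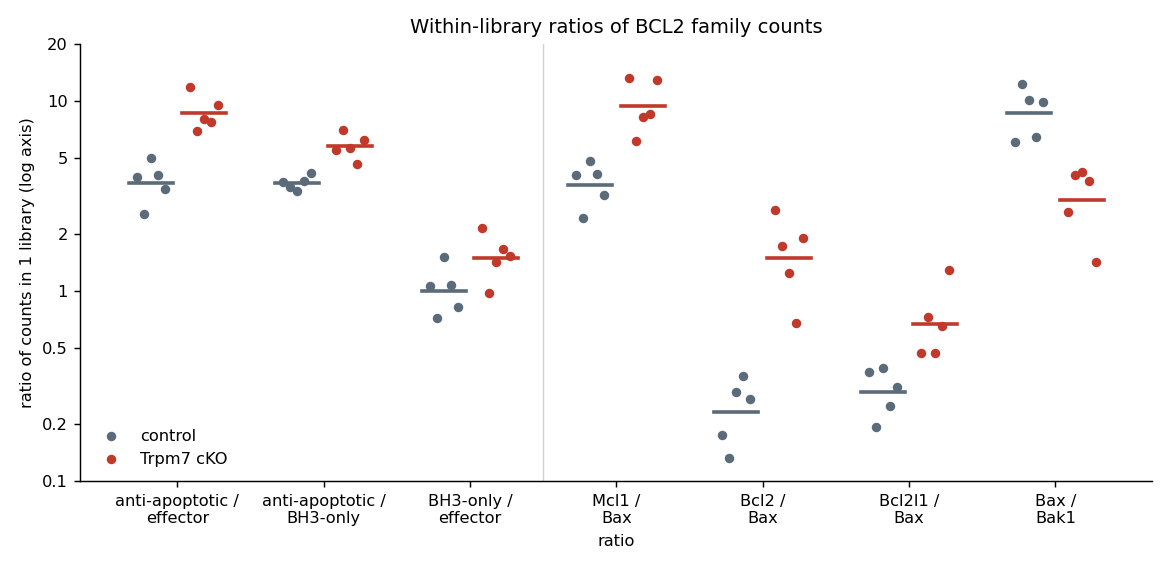
Ratios of counts within each library (log axis) for 3 pairs of roles and 4 pairs of genes in 5 control and 5 Trpm7 cKO libraries; points are libraries and bars are geometric means. The groups separate in every ratio drawn except BH3-only to effector. All 4 gene pairs drawn contain Bax. The other gene pairs given in the text are not drawn, and of these all overlap except Mcl1 to Bbc3.

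Transcripts of other cell types moved with genotype in the same libraries. Of 40 leukocyte markers, 37 were in the table and 26 were tested, and 26 of 26 rose, with a median log2 fold change of 3.07. Their summed level ran from 504 to 831 normalized CPM in control and was 4380, 1730, 4460, 7560 and 6980 in cKO replicates 1 to 5. The defining marker Ptprc was at 4 to 15 counts in control and 10 to 59 in cKO, and the most abundant markers were Ctss in control and Lyz2 in cKO. Ctss averaged 153 ± 28.8 in control and Lyz2 126 ± 35 in control and 1160 ± 500 normalized CPM in cKO. Lymphocyte markers Cd3e, Cd79a and Nkg7 were at 0 counts in every control library and at most 2 in a cKO library. Endothelial markers rose in 4 of 4 tested, with sums of 5.36 to 74.1 and 140 to 695. Erythroid markers rose in 3 of 3, with sums of 1.99 to 178 and 146 to 3270. Of 5 tested fibroadipogenic progenitor markers 3 rose and 1 fell. Of 17 MuSC identity genes 10 rose and 3 fell, and of 11 commitment genes 1 rose and 9 fell. The share of mitochondrial transcripts was 12 to 16.5% in control and 8.82 to 10.6% in cKO.

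Set beside the leukocyte sum, Bcl2 among the cKO libraries was highest in replicate 2, which had the lowest sum of them, and lowest in replicate 4, which had the highest. This order did not hold throughout. Replicate 5 of the cKO group, with a sum of 6980, had Bcl2 at 105 normalized CPM. Replicates 1 and 3, with sums of 4380 and 4460, had Bcl2 at 103 and 76.7. With the leukocyte score in the model, the log2 fold change of Bcl2 was 3.21 (adjusted p = 0.00144). Mcl1 was lowest of the cKO group in replicate 2, and its change was -0.02 in that model. Bax was at 68.1 normalized CPM in cKO replicate 2 and at 38.8 to 63 in the other cKO libraries. The ranges of the sum do not overlap between the genotypes, so that model estimates the change with wide error, and over all genes 389 rose and 139 fell in it. The part that other cells have in the Bcl2, Mcl1 and Bax values was not tested beyond that fit. Endothelial and erythroid markers were not a term in any fit.

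**Figure D4:**
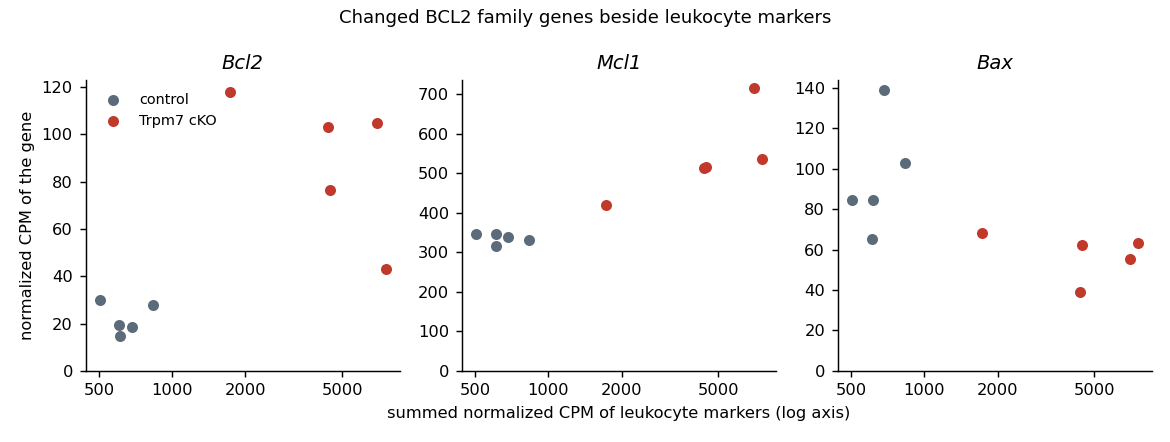
Normalized CPM of Bcl2, Mcl1 and Bax against the summed normalized CPM of leukocyte markers (log axis) in the 10 libraries, coloured by genotype. The cKO library with the lowest leukocyte sum, 1730, has the highest Bcl2 and the lowest Mcl1 of the cKO group. The cKO library with a sum of 6980 has Bcl2 at 105.

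The scale matters because the cKO libraries held fewer counts from equal numbers of cells. Over all tested genes, 1908 rose and 1866 fell with TMM factors, 1077 rose and 2979 fell with scaling on MuSC identity genes, and 380 rose and 5162 fell with counts per 3000 sorted cells. The identity genes were not constant themselves, with summed normalized CPM of 3840 to 4470 in control and 4120 to 6640 in cKO. Scaling on them therefore moves other genes down in cKO. With scaling on MuSC identity genes and with counts per 3000 sorted cells, the median log2 fold change of the tested genes was -0.40 and -1.15. Relative to those medians, Bcl2 was at 1.96 and 1.97, Mcl1 at 0.69 and 0.61, Bax at -0.71 and -0.73, and Bad at 0.05 and 0.01. On the scale of counts per sorted cell, Bcl2 remained higher (0.82, adjusted p = 0.0473), Bax was lower (-1.88, adjusted p = 1.08e-05), and Bad and Bbc3 were also lower.

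The wider apoptosis genes were taken as 6 lists with 117 genes, of which 88 were tested. Over the lists together, 32 rose and 22 fell, each gene counted once, where 24.6% and 24.1% of all tested genes did. Among other BCL2 family genes, 13 of 15 were in the table and 5 were tested. Bnip3l, a mitophagy receptor related to Bnip3, rose from 18.2 ± 2.32 to 44.4 ± 18.7 normalized CPM (log2 fold change 1.17, SE 0.27, adjusted p = 0.00143), but it was at -0.16 with the leukocyte score in the model (adjusted p = 0.941) and at -0.02 with counts per 3000 sorted cells (adjusted p = 0.969). Bok, a BAX-like family member, rose from 11.3 ± 2.23 to 25.4 ± 13.9 on 7 to 13 counts a library (0.91, SE 0.34, adjusted p = 0.0343), and DESeq2 did not call it (adjusted p = 0.0826). The BH3-only gene Pmaip1 was at 60.8 ± 4.61 and 65 ± 22.4 (0.01, adjusted p = 0.962), Bcl2l2 at 0.55 (adjusted p = 0.191) and Bcl2l13 at -0.39 (adjusted p = 0.261). The paralogs Bcl2a1b and Bcl2a1d were too low to test, with up to 17 and 18 counts in cKO replicate 4, and as near-identical copies their counts may be split.

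Downstream of the membrane, the apoptosome and caspase list had 3 genes that rose and 6 that fell among 11 tested of 18, with a median of -0.63. Casp2 (-1.66, adjusted p = 0.000324), Casp6 (-0.87, adjusted p = 0.0166), Aifm1, which encodes a mitochondrial flavoprotein (-1.66, adjusted p = 1.01e-05), Cycs, which encodes cytochrome c (-0.63, adjusted p = 0.00954), and Birc5, an inhibitor family member with a role in cell division (-1.08, adjusted p = 8.8e-06), were among those that fell. The genes that rose were all inhibitors of apoptosis. Birc3 read 21.4 to 39.4 normalized CPM in control and 97.8 to 362 in cKO (3.04, SE 0.29, adjusted p = 6.99e-07), and Birc2 read 10 to 27.8 and 84.5 to 182 (3.07, SE 0.26, adjusted p = 2.56e-08). Xiap, which binds caspases directly, rose from 68 ± 12.7 to 104 ± 23.1 (0.59, SE 0.19, adjusted p = 0.0146), with DESeq2 at an adjusted p of 0.0535. Apaf1, the scaffold of the apoptosome, was at -0.07 (adjusted p = 0.786). Birc2, Birc3, Casp6 and Birc5 kept an adjusted p below 0.05 with the leukocyte score in the model, at up to 0.0458 for Casp6, while Casp2, Aifm1, Cycs and Xiap did not. Casp2 then stood at 0.17 and Xiap at -0.58, the opposite signs, and Aifm1 and Cycs at -0.75 and -0.31.

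In the death receptor arm, 7 of 11 tested genes rose, 0 fell and the median was 1.13. Cflar, which keeps caspase 8 from being activated at the receptor, rose from 104 ± 15.7 to 235 ± 28.9 normalized CPM (1.18, SE 0.15, adjusted p = 3.21e-06). Ripk1, a kinase of the receptor complex, rose from 47.1 ± 7.39 to 98.6 ± 15.9 (1.05, SE 0.18, adjusted p = 6.41e-05). The number that fell was also 0 at an unadjusted p below 0.05 and with DESeq2 and limma-voom, while scaling on MuSC identity genes gave 2 and counts per 3000 sorted cells 4. Tnf and Fas, named after their values were seen, had the highest changes of the list, at 3.78 and 2.92. With counts per 3000 sorted cells, Cflar was at 0.05 (adjusted p = 0.905) and Ripk1 at -0.11 (adjusted p = 0.791). With the leukocyte score in the model, Cflar was at 1.25 (adjusted p = 0.0588), Ripk1 at 0.89 (0.304) and Tnf at 2.68 (0.191), Tnfrsf1b turned from 1.13 to -0.71 (0.61), and Fas was still called, at 3.54 (0.00443).

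The list of mitochondrial partners and dynamics genes holds outer membrane proteins and also proteins of the inner membrane and matrix, such as Slc25a4, Slc25a5, Opa1 and Ppif. Of its 16 tested genes 1 rose and 9 fell, with a median of -0.54. Slc25a5, an adenine nucleotide carrier of the inner membrane, fell from 892 ± 61.8 to 399 ± 82.2 normalized CPM (-1.14, SE 0.15, adjusted p = 3.71e-06). Vdac2, the outer membrane channel that holds BAK in place, fell from 650 ± 95.3 to 301 ± 51 (-1.09, SE 0.15, adjusted p = 6.87e-06). Mtch1, a membrane carrier homologue, rose from 39.8 ± 5.32 to 95.2 ± 30.7 (1.18, SE 0.20, adjusted p = 6.07e-05), and with counts per 3000 sorted cells it was at -0.02. With the leukocyte score in the model, Slc25a5 and Vdac2 were at -0.98 and -0.97 (adjusted p = 0.191 and 0.197) and Mtch1 at 0.85 (adjusted p = 0.369).

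Of 27 tested genes known to act on the members, 14 rose and 3 fell, with a median of 0.38. Jun, which encodes an AP-1 subunit, rose from 1300 ± 161 to 1800 ± 442 normalized CPM (0.46, SE 0.16, adjusted p = 0.0272) and Atf4, a stress response factor, from 394 ± 68.8 to 649 ± 135 (0.71, SE 0.16, adjusted p = 0.00128). Both lost the call with scaling on MuSC identity genes, at 0.04 and 0.29, and Jun also with DESeq2 (adjusted p = 0.0668). Trp53, whose product p53 activates Bax and Bbc3, fell from 498 ± 74.3 to 228 ± 41.7 (-1.12, SE 0.15, adjusted p = 7.15e-06), and Akt1, whose kinase phosphorylates BAD, from 416 ± 16.8 to 178 ± 62.6 (-1.18, SE 0.18, adjusted p = 2.52e-05). With the leukocyte score in the model none of these 4 was called, Trp53 being at -0.44 (adjusted p = 0.61), Akt1 at -0.95 (0.271), Atf4 at 0.76 (0.342) and Jun at 0.48 (0.605). Akt1 does not stand for all kinase genes of the list. Of others, named after their values were seen, Akt2, Pim1, Pim3 and Gsk3b rose (0.85, 2.58, 0.80 and 0.38). Mapk8 fell (-0.98). In the model with the leukocyte score none of them was called, with adjusted p from 0.266 for Pim3 to 0.876 for Akt2. Of 19 tested mitophagy and hypoxia genes, 6 rose and 4 fell, with a median of 0.08. Gabarap, an autophagosome protein, and Ddit4, a stress-induced inhibitor of mTOR signalling, rose (0.52 and 1.77, adjusted p = 0.0188 and 0.000561). Ldha and Egln3 fell (-0.77 and -3.07, adjusted p = 6.09e-05 and 1.08e-06). These 2 do not stand for the rest of the list. Pgk1 also fell (-1.10), Bnip3l rose (1.17), and Vegfa, P4ha1 and Slc2a1 were not called (0.08, 0.54 and -0.67, adjusted p = 0.729, 0.107 and 0.0885). DESeq2 did not call Gabarap (adjusted p = 0.0754). With the leukocyte score in the model Gabarap, Ddit4, Ldha and Egln3 lost the call too, at 0.70, 0.46, -1.02 and -2.16 (adjusted p = 0.464, 0.832, 0.0982 and 0.262).

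**Figure D5:**
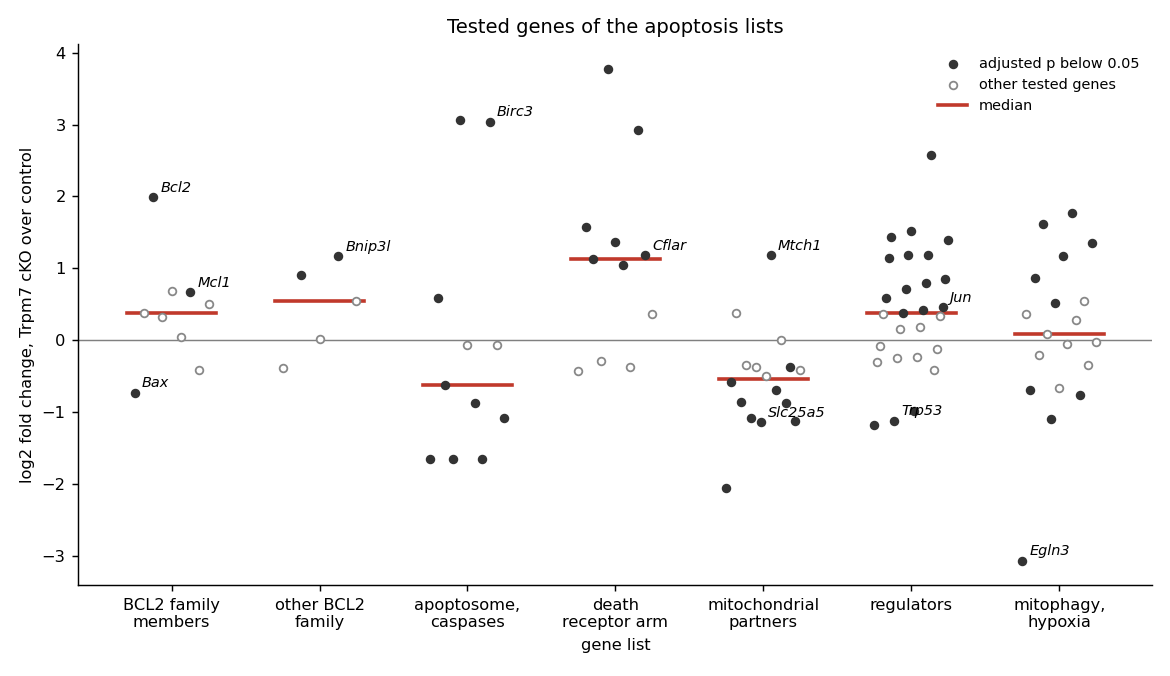
Log2 fold change, Trpm7 cKO over control, of every tested gene of the BCL2 family members and of 6 apoptosis lists; filled points have an adjusted p below 0.05 and red bars are medians. The medians run from -0.63 for the apoptosome and caspase list to 1.13 for the death receptor arm.

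The pattern over the 10 libraries was compared between each member and all other tested genes with a mean of at least 10 normalized CPM, as the root mean square difference of centred log2 CPM. Closest to Bcl2 was Add3 (0.17), to Mcl1 Mto1 (0.12), to Bax Vps13c (0.18), to Bcl2l1 Vcl (0.20) and to Bcl2l11 Lhfpl2 (0.25). Closest to Bak1 was Pias4 (0.20), to Bad Rpl14 (0.17), to Bid Fam53c (0.11) and to Bbc3 Nol7 (0.17). Add3 had a log2 fold change of 1.98, beside 1.99 for Bcl2. The distance includes the shift between genotypes, so near-equal changes follow from the choice of the closest gene. No BCL2 family member was the closest gene of another member, which with 7752 candidates for each says little about the family.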

How the data were processed

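RNA from 3000 sorted MuSCs per library was read at the 3′ end by CEL-Seq2 in 5 control and 5 Trpm7 cKO libraries. Before depositing them, the authors made the counts per gene with UMI-tools 1.1.4, Trim Galore 0.6.10, HISAT2 2.2.1 on GRCm38 and featureCounts 2.0.6 (versions from the submitters' processing notes), so that each deposited count is 1 molecule and is not normalized. The annotation release and strand setting are not given in the sources used here.

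Groups came from the sample labels. Of 24620 entries, 12 repeated a symbol and the entry with the larger total was kept. Counts were fitted with edgeR 4.0.16 in R 4.3.3 (TMM factors, filterByExpr with a minimum count of 10 and a minimum total of 15, quasi-likelihood F test, genotype as the only term), with Benjamini-Hochberg adjustment over 7753 genes. Alternatives were DESeq2 1.42.0, limma-voom (limma 3.58.1), RLE factors, total counts, scaling on MuSC identity genes, counts per 3000 sorted cells, a minimum count of 3 or no filter, thinning to 205986 counts, the replicate number as a block, a leukocyte or MuSC identity score as a term, cKO replicates 4 and 5 summed, and each library left out. Promoters came from RefSeq (GRCm38.p6), positions and overlapping genes from the GENCODE annotation of GRCm38. The genes and lists were chosen with earlier results of these data known. All 10 members are named with every library, and from each other list the 2 called genes of highest mean level in each direction, or any tested gene of the other BCL2 family and caspase lists. A result that this rule would name is not reported here. The fit was tested on simulated counts: of 7556 genes tested, 106 of 106 genes changed by a log2 fold change of 2 and 58 of 81 changed by 1 were called, with 6 unchanged genes called. Changed genes removed by the filter are not among these numbers. Far fewer genes were changed in the simulation than were called in the data, so these rates do not give the power for members at low counts. Libraries of a group differed by more than counting noise, and p-values measure only the spread between these libraries. Floors cover counting error only.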

Additional observations from a re-analysis of the deposited data

Results flagged for a closer look

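The normalized CPM of Bak1 in Trpm7 cKO replicate 5 was 38.6, far from the 14.6 to 16.6 of the other 4 cKO libraries. This value rests on 7 counts in the smallest library. It was the 1 group of 28 examined in which a library stood apart by Dixon's criterion, which chance meets in about 1 of 20 groups.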

How the results depend on the processing

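Bcl2, Mcl1 and Bax were called with the same direction under DESeq2, limma-voom, RLE factors, both other filters, cKO replicates 4 and 5 summed and each library left out, and also in the 3 fits without pairs of libraries that were chosen after seeing the data (without control replicate 2 and cKO replicate 5, without cKO replicates 4 and 5, and without cKO replicates 3 and 5). With total counts Bak1 was also called (0.79). Low depth limits Bak1 and Bnip3 most. The causes of the changes below were not tested.

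With scaling on MuSC identity genes, 1 member rose and 2 fell, with log2 fold changes of 0.29 for Mcl1, -0.35 for Bad, -0.08 for Bid and -0.83 for Bbc3, and 21 genes of the other lists rose and 36 fell. With counts per 3000 sorted cells, 1 rose and 3 fell, 0 were higher and 2 lower past both thresholds, Bcl2l1 was at -0.65, Bcl2l11 at -0.76, Mcl1 at -0.54, Bak1 at -0.47, Bad at -1.15, Bid at -0.81 and Bbc3 at -1.57, and 5 genes of the other lists rose and 53 fell. With the leukocyte score as a term, 1 rose and 0 fell, Bcl2l11 was at -1.99, Mcl1 at -0.02, Bax at -1.03 and Bid at -0.13, and 4 genes of the other lists rose and 3 fell. With the MuSC identity score as a term, 0 fell, 0 were higher past both thresholds, Bcl2l11 was at 1.15, Bax at -0.59 and Bad at -0.26, and 17 genes of the other lists rose. In counts thinned to the smallest library only 3941 genes and 2 members, Mcl1 and Bax, could be tested, 1 rose, 0 fell (Bax -0.68) and 0 were higher past both thresholds. Bad, at 0.04, changed sign with DESeq2 (-0.01), limma-voom (-0.05), no filter (-0.15) and a minimum count of 3 (-0.06).

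With 1 library left out, the log2 fold change of Bcl2l1 ran from 0.36 to 0.72, that of Bcl2l11 from -0.09 to 0.62 and that of Bad from -0.11 to 0.23. With cKO replicates 4 and 5 left out Bcl2l11 was at -0.28 and Bcl2l1 at 0.23, with cKO replicates 3 and 5 left out Bad was at -0.28, and without control replicate 2 and cKO replicate 5 Bcl2l1 was at 0.35.

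Over all tested genes, 1908 rose and 1866 fell. These counts were 915 and 879 in thinned counts, 988 and 859 with the MuSC identity score, 389 and 139 with the leukocyte score, and 2881 and 2635 without a filter.

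The replicate numbers are shared by the genotypes in the labels, but same-numbered libraries did not deviate together (correlations from -0.118 to 0.181), so they are not read as pairs. With the replicate number as a block, 2 members rose and 1 fell, as without it, Bcl2 was at 1.97, Mcl1 at 0.66 and Bax at -0.72, 1814 genes rose and 1758 fell in all, and only replicate 5 correlated best with its own number.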
